A study of Homo sapiens with 6 samples.

Results

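The tripartite motif (TRIM) genes encode a large family of ubiquitin ligases. Its members were taken as every row of the deposited gene table whose symbol is TRIM followed only by digits, which gave 67 of 62700 genes. Their expression was measured by RNA sequencing in PC3 cells, an established prostate cancer line. Control cells carried a control short hairpin RNA (shRNA, which silences a gene through its transcript; titled shNC, genotype WT), and the others an shRNA against TTC3 (titled shTT3, genotype TTC3 knockdown). Each group had 3 libraries, made from total RNA after removal of ribosomal RNA. Both groups were grown in the same medium and no other treatment is labelled. The labels do not say whether knockdown cells were a clone or a pool, or whether replicates were separate cultures, so the tests speak of the spread among these libraries alone, part of which may be technical.

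A typical TRIM protein carries a RING domain that recruits a ubiquitin-conjugating enzyme, then B-box zinc fingers, a coiled coil through which the proteins pair, and a variable C-terminal domain that selects the target. The largest class ends in a SPRY domain and includes sensors and restriction factors of innate immunity, several of which are themselves induced by interferon. Other classes carry a PHD finger with a bromodomain and act on chromatin, or NHL repeats that bind RNA or protein. TTC3 is itself a RING ubiquitin ligase outside this family.

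The targeted gene was lower in each knockdown library. TTC3 was at 695, 684 and 680 CPM (counts-per-million of the scaled library) in control libraries and at 228, 183 and 178 CPM in TTC3 shRNA libraries (log2 fold change -1.81 ± 0.10 SE, adjusted p = 5.65e-05). Libraries held 143246356 to 155526861 counts. Epithelial keratins KRT8 and KRT18 were well expressed (165 and 163 CPM in control cells), and KLK3 had no count. Of 5 fibroblast markers, summed levels were 19.2 to 20.2 CPM in control and 44.0 to 102 CPM in TTC3 shRNA libraries, nearly all COL1A1, with DCN at 0.0290 and 0.0272 CPM. Leukocyte markers summed to 12.3 to 17.0 and 16.1 to 38.1 CPM, nearly all CD68, with no count of CD3E. Endothelial markers summed to 4.69 to 5.64 and 2.63 to 3.52 CPM, with no count of CDH5. The part of these markers in the TRIM results was not tested. TTC3 shRNA replicate 1 stood apart from replicates 2 and 3: the slope of the log2 ratio to control per doubling of transcript length was -0.03, -0.17 and -0.21 in replicates 1, 2 and 3.

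In control cells the family spanned a wide range of levels. Of the 67 genes, 50 had enough counts to be tested, 33 of them at 10 CPM or more and 4 at 100 CPM or more. Levels between genes were compared per kilobase of transcript for the 46 tested genes whose transcripts held at least 80% of the gene count. TRIM28, the corepressor that KRAB zinc finger proteins recruit to silence retroelements, was highest at 178 ± 4.30 CPM per kilobase (SD, n = 3). Next came TRIM25 at 38.7 ± 0.778, TRIM27 at 26.8 ± 0.180 and TRIM37 at 23.2 ± 0.282 CPM per kilobase. TRIM58, the fifth in order, was at 23.03 ± 0.169 CPM per kilobase, below TRIM37 by less than the SD of TRIM37. Of the 17 genes left untested, 11 had no count in any library, where 3 counts correspond to 0.0186 to 0.0219 CPM. These were TRIM10, TRIM15, TRIM40, TRIM42, TRIM48, TRIM51, TRIM61, TRIM63, TRIM64, TRIM75 and TRIM77. The other 6 (TRIM43, TRIM49, TRIM50, TRIM55, TRIM60 and TRIM67) held at most 12 counts over the 6 libraries. Members such as TRIM43, TRIM48, TRIM49 and TRIM64 have near-identical copies, and so do TRIM73 and TRIM74, so their values are uncertain.

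**Figure D1:**
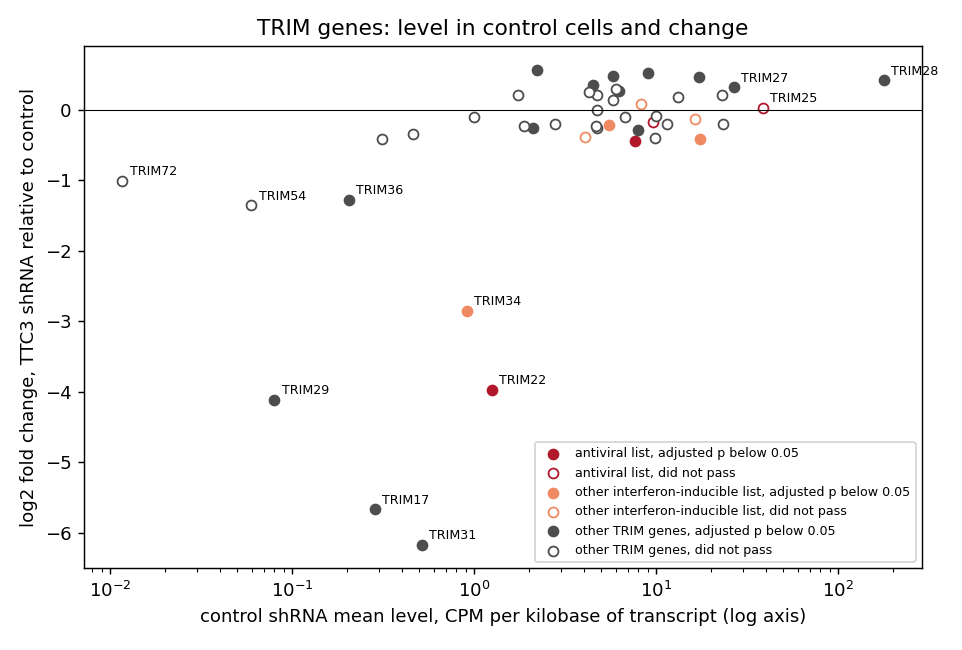
Mean level in control cells (horizontal, CPM per kilobase of transcript, log axis) against log2 fold change in TTC3 shRNA cells (vertical) for the 46 tested TRIM genes with a level per kilobase; filled points passed at an adjusted p of 0.05. TRIM28 sits far to the right at 178 CPM per kilobase, and the 6 falls of at least 2-fold all lie at 1.25 CPM per kilobase or less. Those 6 include TRIM17, TRIM29 and TRIM31, which passed the filter on low counts only through the control libraries, so that they had to differ.

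Of the 50 tested TRIM genes, 9 rose and 12 fell after TTC3 shRNA (edgeR's quasi-likelihood test, Benjamini-Hochberg adjusted p below 0.05 over all genes), and 29 did not pass. That is 42.0% of the members, against 33.6% of all tested genes (15.7% higher and 17.8% lower). The median log2 fold change was -0.18 for the members and -0.02 for all genes. Among the 43 members with a mean of at least 1 CPM, 9 were higher and 8 lower, 39.5% against 42.2% of all genes at that level. Of the 12 falls 6 were at least 2-fold, but 3 of these (TRIM17, TRIM29 and TRIM31) passed the filter on low counts only through the control libraries, so that they had to differ. Among the members at 1 CPM or more 2 fell at least 2-fold, TRIM22 and TRIM34, and the largest rise was 0.57 on the log2 scale. Of all tested genes, whatever their level, 8.55% were lower and 2.92% higher at 2-fold or more. Of the 14897 tested genes at 1 CPM or more, 768 were lower and 435 higher by that measure. The groups did not overlap for 12 members on the higher side and 21 on the lower side (23.3% and 27.0% of all genes, 50.3% in either direction). TRIM17, TRIM29 and TRIM31 are among those 21.

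The split by direction depended on the scaling and the number of calls on single libraries. With library totals alone, which moved the median of all genes from -0.02 to -0.15, 3 members were higher and 20 lower. All genes then gave 2518 higher and 5356 lower of 24325. Without TTC3 shRNA replicate 1 the number past the test was 39 (all genes 54.1%). Without that group's replicates 2 and 3 it was 13 and 17 (all genes 21.1% and 24.8%). Without control replicates 1, 2 and 3 it was 10, 10 and 9 (all genes 18.2%, 18.5% and 18.4%). The calls of TRIM6, TRIM14, TRIM21, TRIM22, TRIM34, TRIM52 and TRIM59 held in each of 15 alternative fits at an adjusted p of 0.05. These fits do not include the test against a fold of 1.5, which TRIM22 and TRIM34 passed and the other 5 did not.

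**Figure D2:**
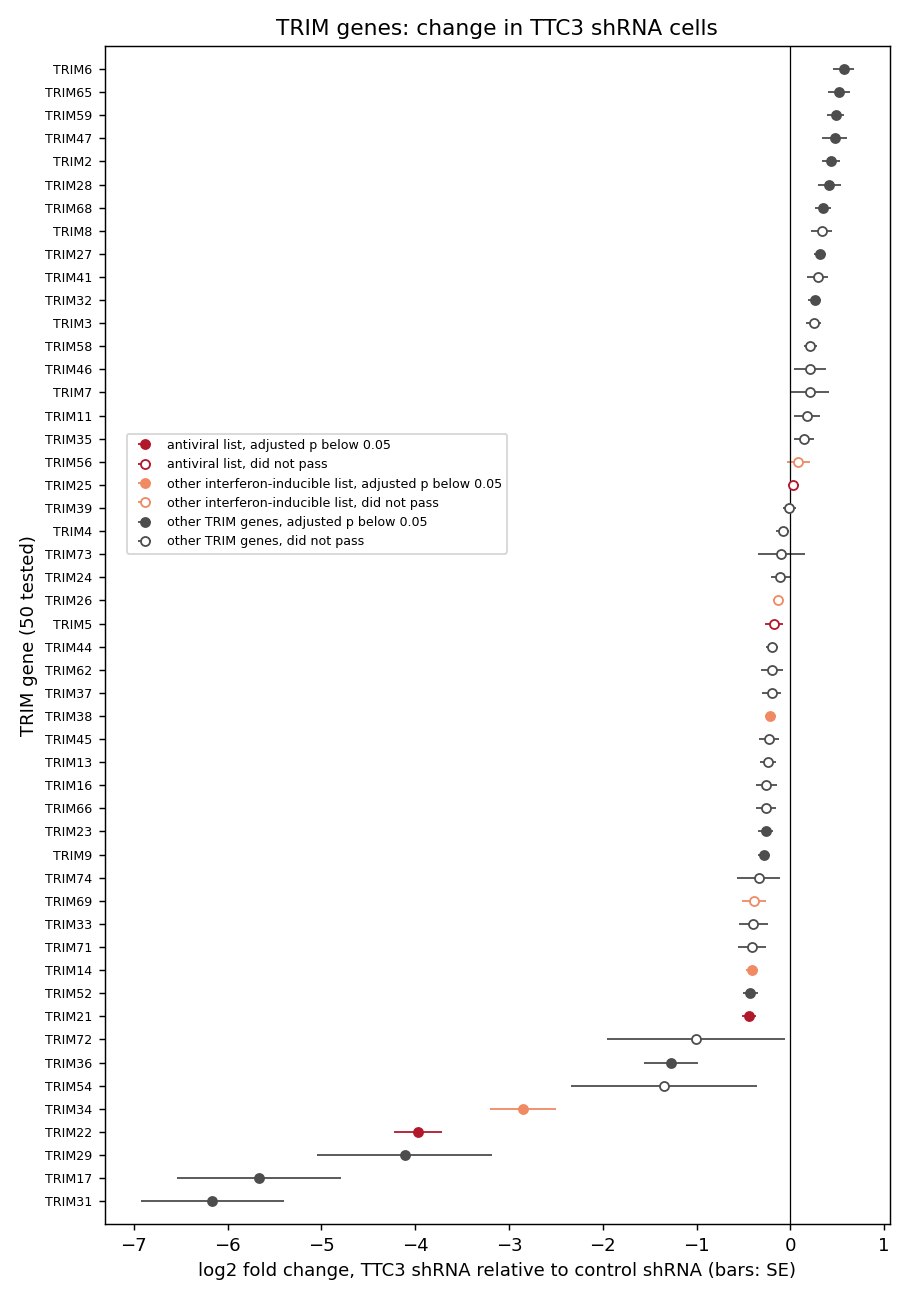
Log2 fold change in TTC3 shRNA cells relative to control for the 50 tested TRIM genes, with standard errors; filled points passed at an adjusted p of 0.05 and colours mark the antiviral list, the rest of the interferon-inducible list and all other members. The upper end stops at 0.57 for TRIM6, while TRIM22 and TRIM34 lie at -3.97 and -2.85; TRIM31, TRIM17 and TRIM29, at the bottom, were tested only through the control libraries.

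A list of TRIM genes known to respond to interferon holds TRIM5, TRIM21, TRIM22, TRIM25, TRIM14, TRIM26, TRIM34, TRIM38, TRIM56 and TRIM69. Of its 10 members 5 fell, 0 rose and 5 did not pass, with a median of -0.30, where 17.8% of all tested genes were lower and 15.7% higher. The 40 tested members outside the list had 9 higher, 7 lower and a median of -0.10. Among those 7 are TRIM17, TRIM29 and TRIM31, which the filter admitted only through control libraries and which had to differ. The median of the list was -0.26, -0.32 and -0.25 in TTC3 shRNA replicates 1, 2 and 3.

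Promoters of the family were searched for the core of the interferon-stimulated response element, the site bound by interferon-activated transcription factors, because the list above is defined by its response to interferon. The RefSeq table of promoters (GRCh38.p14, 250 bases before to 50 after each gene start) held 53 members, not TRIM22 among them. The letters GAAA, any 2 bases and GAAA, on either strand (TTTC, any 2 bases and TTTC when read on the other), were found in 9 of these 53. They were in 6 of 9 promoters of the interferon-inducible list and 3 of 44 others, against 3.65% of all 27305 promoters and 2.95% of those of tested genes. A match describes letters, not binding. The 9 sites that carry this difference in frequency are given 5′ to 3′ on the gene's strand, 30 bases each, with the matching letters in capitals and overlapping matches joined. The first 6 belong to the interferon-inducible list.
TRIM34: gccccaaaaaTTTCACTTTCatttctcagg
TRIM5: atagtttatcTTTCACTTTCctgccctgag
TRIM21: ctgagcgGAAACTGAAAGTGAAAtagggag
TRIM14: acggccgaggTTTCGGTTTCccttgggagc
TRIM26: cgcctgaTTTCAGTTTCCATTTCgctgccc
TRIM69: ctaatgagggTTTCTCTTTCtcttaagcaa
TRIM16: acagaggtaaGAAATAGAAAtaaagggtcc
TRIM2: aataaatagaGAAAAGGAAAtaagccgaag
TRIM44: tcctgacgggGAAAGGGAAAgtggaaccgg

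These windows lie at chr11:5624901-5624930 (TRIM34), chr11:5685082-5685111 (TRIM5), chr11:4393663-4393692 (TRIM21), chr9:98119229-98119258 (TRIM14), chr6:30213578-30213607 (TRIM26), chr15:44736456-44736485 (TRIM69), chr17:15683012-15683041 (TRIM16), chr4:153151936-153151965 (TRIM2) and chr11:35662730-35662759 (TRIM44). The match starts 27 bases before the RefSeq gene start in TRIM5, 26 before in TRIM14 and 18 after it in TRIM21. The spans given below for TRIM5 and TRIM34 come from another annotation, GENCODE, in which the gene starts elsewhere. TRIM34 and TRIM5 carry the same 10 letters, TTTCACTTTC, while their log2 fold changes were -2.85 and -0.17. Of the 9 genes with a match, TRIM34, TRIM21 and TRIM14 fell, TRIM2 rose and the other 5 did not pass (17.8% lower and 15.7% higher among all tested genes). TRIM25, TRIM38 and TRIM56 had no match in this window.

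Among 4 members best known for antiviral roles, TRIM5, TRIM21, TRIM22 and TRIM25, the values differed widely. TRIM22 and TRIM21 fell, and TRIM5 and TRIM25 did not pass. The count of 2 of 4 compares with 19 of the other 46 tested members (9 higher, 10 lower) and with 33.6% of all tested genes. TRIM17, TRIM29 and TRIM31, admitted only through control libraries, are among the 10 lower. The medians of the 4 and of the 46 were -0.31 and -0.16. The difference of these medians, -0.14, was about as large as its spread of 0.13 (SD) over the 3 TTC3 shRNA libraries.

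TRIM22 is an interferon-induced ligase known for restricting transcription of HIV-1 (ENSG00000132274.17, hg38 chromosome 11, 5689689 to 5737089, plus strand). It was at 3.30, 3.36 and 3.99 CPM in control libraries and 0.199, 0.314 and 0.167 CPM in TTC3 shRNA libraries. The groups lay far apart, and each TTC3 shRNA library was below each control. TRIM22 fell by 3.97 ± 0.26 on the log2 scale (SE, adjusted p = 8.67e-05), to 6.39% of control. Estimated counts were 529, 542 and 596 against 30, 43 and 24.

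TRIM21 is a cytosolic receptor for antibodies that directs antibody-bound virus to the proteasome (chromosome 11, 4384897 to 4393696, minus strand). Its levels were 14.2, 14.6 and 15.5 CPM in control and 11.1, 10.7 and 10.8 CPM in TTC3 shRNA libraries. The 3 TTC3 shRNA libraries were close together and all below control. TRIM21 fell by 0.44 ± 0.08 on the log2 scale (adjusted p = 0.00554), to 73.6% of control.

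TRIM5 is the restriction factor that recognises incoming retroviral capsids (chromosome 11, 5663557 to 5938619, minus strand, a span that overlaps TRIM22 on the opposite strand). It was at 35.8, 34.9 and 34.4 CPM in control and 35.3, 27.6 and 30.5 CPM in TTC3 shRNA libraries. TTC3 shRNA replicate 1 lay within the control range and the other two below it. The log2 fold change was -0.17 ± 0.10 and did not pass (adjusted p = 0.214), but it passed without TTC3 shRNA replicate 1 (-0.25, adjusted p = 0.00378).

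TRIM25 attaches ubiquitin in the pathway of the viral RNA sensor RIG-I and also transfers the ubiquitin-like ISG15 (chromosome 17, 56836387 to 56914080, minus strand). Its levels were 216, 225 and 223 CPM in control and 222, 226 and 230 CPM in TTC3 shRNA libraries. The groups overlapped. The log2 fold change was 0.03 ± 0.06 (adjusted p = 0.709), turned to -0.10 with library totals alone and passed under no alternative run.

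TRIM34, a close relative of TRIM5 (chromosome 11, 5619764 to 5644398, plus strand), was at 2.15, 1.95 and 2.25 CPM in control and 0.451, 0.153 and 0.272 CPM in TTC3 shRNA libraries. No library of either group came near the other group. It fell by 2.85 ± 0.35 on the log2 scale (adjusted p = 0.00142). The read-through gene TRIM6-TRIM34, which spans it, held 111 counts in TTC3 shRNA replicate 2 and 0 in the other 5 libraries. With those counts added to TRIM34, an analysis chosen after seeing the data, it fell by 1.92 on the log2 scale (adjusted p = 0.0129).

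TRIM14, an adaptor of antiviral signalling at mitochondria that lacks a RING domain, was at 77.6, 77.7 and 77.2 CPM in control and 62.6, 56.2 and 56.0 CPM in TTC3 shRNA libraries. All 3 TTC3 shRNA libraries were lower, and TRIM14 fell by 0.41 ± 0.07 on the log2 scale (adjusted p = 0.00386). TRIM38, a feedback inhibitor of inflammatory signalling, was at 53.2, 51.3 and 50.9 CPM and at 45.8, 44.8 and 43.2 CPM. It fell by 0.22 ± 0.06 (adjusted p = 0.0287), a call lost once each library's length trend was taken out (-0.10, adjusted p = 0.271) and without any of the 3 control replicates or TTC3 shRNA replicates 2 and 3.

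TRIM69, an interferon-induced inhibitor of vesicular stomatitis virus, was at 9.69, 10.1 and 10.3 CPM in control and 6.34, 8.12 and 8.54 CPM in TTC3 shRNA libraries. All 3 were below control, with a log2 fold change of -0.39 ± 0.13 that did not pass (adjusted p = 0.0535) and passed in 6 of 15 alternative fits. TRIM26 was at 55.9 ± 0.717 and 51.1 ± 0.877 CPM (SD, n = 3, log2 fold change -0.13, adjusted p = 0.107). TRIM56, a ligase of the DNA-sensing pathway, was at 90.0 ± 2.65 and 95.6 ± 15.7 CPM (log2 fold change 0.09, adjusted p = 0.611). Its TTC3 shRNA replicate 1 lay below control (77.7 CPM) and replicates 2 and 3 above (102 and 107 CPM).

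**Figure D3:**
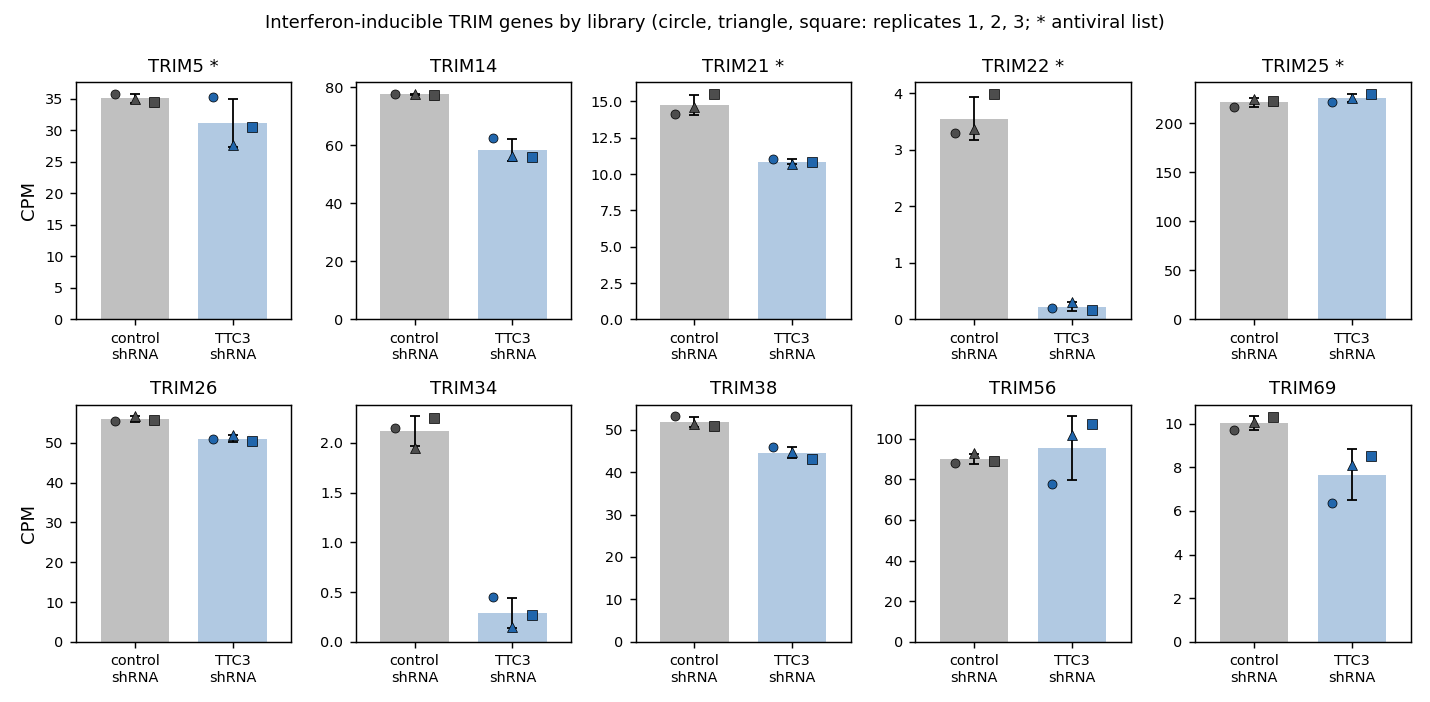
Level of the 10 interferon-inducible TRIM genes in each library (points, with a marker shape for each replicate number), with the group mean as a bar from 0 and the SD as an error bar; asterisks mark the 4 antiviral members. TRIM22 and TRIM34 are far below control in TTC3 shRNA cells, TRIM14, TRIM21 and TRIM38 are lower in all 3 libraries, and TRIM25 overlaps.

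TRIM6, TRIM34, TRIM5 and TRIM22 are neighbours on chromosome 11, between 5596109 and 5938619, and did not change alike. TRIM6, at the start of the run (5596109 to 5612958, plus strand), was at 6.87, 7.37 and 7.16 CPM in control and 11.6, 9.26 and 10.9 CPM in TTC3 shRNA libraries. All 3 TTC3 shRNA libraries were higher, and TRIM6 rose by 0.57 ± 0.11 on the log2 scale (adjusted p = 0.00817), the largest rise in the family. TRIM34, beside it on the same strand, fell, as did TRIM22, which lies within the span of TRIM5. TRIM5 itself did not pass. How reads were divided among these overlapping and read-through genes is not given, so the values of each are uncertain to that extent. Across the family, 34 of the 50 tested members overlap another annotated gene on the opposite strand, TRIM14, TRIM52 and TRIM59 among them. Whether counting used strand is not given, so the same limit applies there.

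TRIM31, TRIM17 and TRIM29 were low in control cells and close to absent in TTC3 shRNA cells. They entered the test only through the control libraries, so among tested genes they had to differ, and they were singled out after their values were seen. TRIM31, an epithelial ligase that acts on the antiviral adaptor MAVS, held 179, 136 and 181 counts in control and 0, 0 and 6 in TTC3 shRNA libraries. TRIM17, known as a promoter of neuronal apoptosis, held 84, 117 and 44 counts against 0, 4 and 0. TRIM29, which lacks a RING domain and marks basal and squamous epithelium, held 40, 45 and 35 counts against 0, 0 and 6. Each group pair was separate. Their counts are given as a description, with no fold or test. TRIM36, a microtubule-associated member also named after its values were seen, went from 0.726 ± 0.147 to 0.298 ± 0.0939 CPM (log2 fold change -1.28, adjusted p = 0.0150), with adjusted p of 0.0558 and 0.0641 without control replicates 1 and 3.

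Chromatin-associated members with a PHD finger and a bromodomain are TRIM28, TRIM24, TRIM33 and TRIM66. Of these 4, 1 passed, beside 33.6% of all tested genes. TRIM28 was at 513, 527 and 539 CPM in control and 564, 749 and 793 CPM in TTC3 shRNA libraries. All 3 were above control, replicate 1 only slightly. TRIM28 rose by 0.42 ± 0.13 on the log2 scale (adjusted p = 0.0412), a call lost in 8 of 15 alternative fits. These were the fits without the length trend (adjusted p = 0.0513), with library totals alone, with no filter and without each library in turn except TTC3 shRNA replicate 1. TRIM33, a ligase of SMAD4 in TGF-beta signalling, was at 68.5, 64.3 and 66.8 CPM and at 64.5, 44.3 and 42.9 CPM. Replicate 1 lay within the control range and replicates 2 and 3 below it, and the log2 fold change of -0.39 did not pass (adjusted p = 0.0899) but did without replicate 1 (-0.59, adjusted p = 1.02e-05). TRIM24, a reader of histone marks that promotes p53 degradation, was at 39.3 ± 0.920 and 36.5 ± 5.13 CPM (adjusted p = 0.458), and TRIM66 at 21.9 ± 0.497 and 18.2 ± 2.60 CPM (adjusted p = 0.103).

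Of 11 genes of the repressor machinery that works with TRIM28, 3 rose and 0 fell, with a median of 0.10. That is 27.3% of the list, below the 33.6% of all tested genes. The remodellers CHD3 and CHD4 rose by 0.43 ± 0.07 and 0.34 ± 0.07 on the log2 scale (adjusted p = 0.00481 and 0.00915), and the heterochromatin protein CBX1 by 0.35 ± 0.06 (adjusted p = 0.00674). The histone methyltransferase SETDB1 was at 34.6 ± 0.312 and 30.5 ± 2.22 CPM (adjusted p = 0.0897).

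Of the 4 NHL-repeat members 2 rose and 2 did not pass, where 15.7% of all tested genes were higher and 17.8% lower. TRIM2, a neuronal ligase for neurofilament light chain, was at 36.7, 36.9 and 34.8 CPM in control and 54.9, 48.1 and 43.2 CPM in TTC3 shRNA libraries, highest in replicate 1. It rose by 0.43 ± 0.09 on the log2 scale (adjusted p = 0.0131). TRIM32, mutated in a limb-girdle muscular dystrophy, was at 23.3, 21.9 and 24.6 CPM and at 28.5, 28.2 and 27.0 CPM, and rose by 0.26 ± 0.07 (adjusted p = 0.0288). Both calls ended with library totals alone (adjusted p = 0.0824 and 0.257) and without any of the 3 control replicates, and that of TRIM32 also without TTC3 shRNA replicate 2. TRIM3 was at 12.4 ± 0.735 and 14.7 ± 0.456 CPM (adjusted p = 0.0534). TRIM71, an mRNA repressor of stem cells, was at 2.72 ± 0.132 and 2.05 ± 0.300 CPM (adjusted p = 0.0693), with all 3 TTC3 shRNA libraries below control.

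Other members that rose were SPRY and transmembrane ligases. TRIM59, a membrane-anchored ligase, was at 25.1, 21.5 and 22.1 CPM in control and 34.3, 30.4 and 31.0 CPM in TTC3 shRNA libraries, with no overlap, and rose by 0.48 ± 0.09 on the log2 scale (adjusted p = 0.00650). TRIM65, a ligase for the RNA sensor MDA5, went from 30.9 ± 0.767 to 44.3 ± 7.03 CPM (SD, n = 3). It lies beside TRIM47 on chromosome 17 (75880335 to 75897003 and 75874161 to 75878575, both on the minus strand). TRIM47 went from 38.9 ± 1.62 to 53.9 ± 10.2 CPM. They rose by 0.52 ± 0.12 and 0.47 ± 0.14 (adjusted p = 0.0148 and 0.0356), with replicate 1 nearest to control in both. TRIM27, a nuclear ligase first found fused to the kinase RET, went from 79.5 ± 0.523 to 99.0 ± 6.61 CPM (log2 fold change 0.32, adjusted p = 0.0114). TRIM68, a SPRY-class ligase, went from 15.1 ± 0.600 to 19.2 ± 1.77 CPM (log2 fold change 0.35, adjusted p = 0.0242). The call of TRIM47 was lost in 8 of 15 alternative fits, among them those without the length trend and with no filter (adjusted p = 0.0539 and 0.0609). The calls of TRIM27, TRIM47 and TRIM68 ended with library totals alone, and those of TRIM27, TRIM47, TRIM65 and TRIM68 without any of the 3 control replicates. Without TTC3 shRNA replicate 2 the calls of TRIM47, TRIM65 and TRIM68 ended, and without replicate 3 those of TRIM47 and TRIM68.

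Further falls were small. TRIM52, which lacks a SPRY domain, was at 21.0, 18.3 and 18.7 CPM in control and 14.3, 14.0 and 14.8 CPM in TTC3 shRNA libraries. It fell by 0.43 ± 0.08 on the log2 scale (adjusted p = 0.00734). The antisense gene TRIM52-AS1, named after its values were seen, held 1049, 1108 and 932 counts and 1546, 1438 and 1551 counts, and rose by 0.68 ± 0.09 (adjusted p = 0.00161). Their annotated spans lie side by side on chromosome 5 and do not overlap (181254417 to 181261139 and 181261212 to 181272307). TRIM9, a neuronal ligase of axon guidance, went from 35.5 ± 1.77 to 29.2 ± 0.586 CPM (log2 fold change -0.28, adjusted p = 0.0166), a call lost without control replicate 2 or 3 or TTC3 shRNA replicate 2 or 3. TRIM23, which carries an ARF-type GTPase domain, went from 8.51 ± 0.0762 to 7.08 ± 0.111 CPM (log2 fold change -0.26, adjusted p = 0.0470), a call that ended in 9 of 15 alternative fits.

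By C-terminal class, the 25 tested SPRY members had 5 higher and 6 lower, TRIM17 among the lower, with a median of -0.08. Of all tested genes, 15.7% were higher and 17.8% lower, the share to set beside each class count here. Members without such a domain had 0 higher and 3 lower of 8 (median -0.27), and 2 of the 3 were TRIM29 and TRIM31, which the filter admitted only through control libraries. NHL members had 2 higher and 0 lower of 4 (median 0.25), and COS-box members with fibronectin and SPRY domains 0 higher and 2 lower of 3 (median -0.28). Each remaining class held at most 4 tested genes, and TRIM42, alone in its class, was not tested. TRIM37 of the MATH class, the centrosome ligase mutated in mulibrey nanism, was at 95.8 ± 1.57 and 83.5 ± 12.1 CPM (adjusted p = 0.180). TRIM44 was at 148 ± 1.21 and 130 ± 7.79 CPM (adjusted p = 0.0554), and TRIM8, which acts on NF-kappaB and STAT3 signalling, at 104 ± 2.38 and 131 ± 19.0 CPM (adjusted p = 0.0517). TRIM44 and TRIM8 were named after their values were seen, as 2 of the 4 members at 100 CPM or more.

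The TTC3 shRNA libraries differed among themselves across the family. Of the 43 tested members with a mean of at least 1 CPM, replicate 1 was the highest of the 3 TTC3 shRNA libraries in 18 and the lowest in 18. In 9 it lay on the other side of the control mean from both other libraries. The same counts over all genes are not reported here, so these do not show a trait of the family. TRIM11, chosen with TRIM7 as examples after the values were seen, was at 41.1 ± 0.688 CPM in control and 36.0, 51.4 and 52.2 CPM in TTC3 shRNA replicates 1, 2 and 3, and TRIM7 at 9.29 ± 0.340 CPM in control and 7.33, 11.7 and 13.1 CPM. TRIM37 was at 97.2, 78.5 and 74.6 CPM in the same libraries. Across 39 of these members, transcript length and the log2 ratio to control had Pearson's r of 0.17, 0.05 and 0.01 and Spearman's rho of 0.10, -0.19 and -0.29 in the 3 libraries, over genes that share libraries and are not independent. With each library's length trend removed, 7 members were higher and 11 lower (all genes 2995 and 5396 of 24325). That fit also moved the median of all genes from -0.02 to -0.16.

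**Figure D4:**
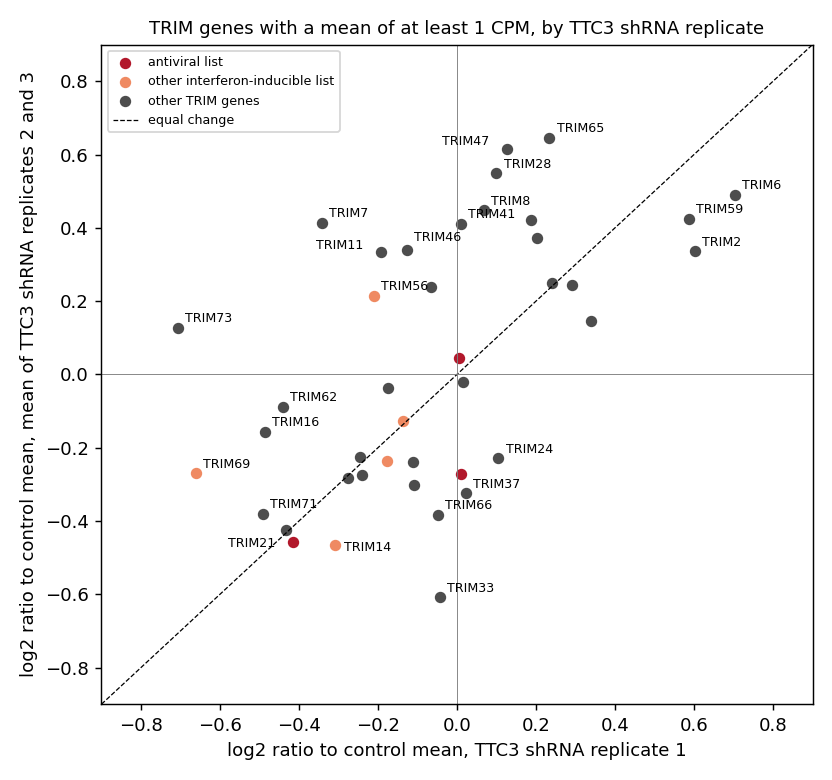
Log2 ratio to the control mean in TTC3 shRNA replicate 1 (horizontal) against the mean of replicates 2 and 3 (vertical) for TRIM genes with a mean of at least 1 CPM; TRIM22 and TRIM34 lie outside the axes and the dashed line marks equal change. TRIM21, TRIM52 and TRIM9 fall close to the line, while TRIM33, TRIM28 and TRIM47 moved mainly in replicates 2 and 3. TRIM11 lay below the control mean in replicate 1 and above it in replicates 2 and 3.

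Family members without a numbered symbol were lower or did not pass. PML, the organiser of nuclear bodies also called TRIM19, was at 85.9, 88.3 and 90.2 CPM in control and 42.5, 56.6 and 62.6 CPM in TTC3 shRNA libraries. It fell by 0.71 ± 0.14 on the log2 scale (adjusted p = 0.00774). MID1, a microtubule ligase mutated in Opitz syndrome, fell by 0.34 ± 0.10 (adjusted p = 0.0347), and its relative MID2 was at 54.2 ± 2.19 and 44.1 ± 7.43 CPM (adjusted p = 0.0955). MEFV, the pyrin gene, was at 0.213 ± 0.103 and 0.111 ± 0.0192 CPM and did not pass (adjusted p = 0.137), while TRIML1 and TRIML2 were not tested.

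RIG-I and its partners act around TRIM25. Of 12 tested genes of RIG-I signalling 6 fell and 2 rose, with a median of -0.27 (all tested genes, 17.8% lower and 15.7% higher). The sensor IFIH1 (MDA5) went from 37.0 ± 2.10 to 6.64 ± 0.676 CPM (log2 fold change -2.48, adjusted p = 1.21e-05), and RIGI itself from 52.5 ± 5.11 to 14.95 ± 3.17 CPM (-1.81, adjusted p = 0.000323). The kinase TBK1 fell by 0.60 ± 0.08 on the log2 scale (adjusted p = 0.00237), and the transcription factor IRF7 by 1.14 ± 0.16 (adjusted p = 0.00244). The rises were the adaptor MAVS, by 0.31 ± 0.06, and the ligase RNF135, by 0.40 ± 0.08 (adjusted p = 0.00660 and 0.0105). Of 11 interferon receptors and signal transducers 7 fell and 1 rose, with a median of -0.49, against the same 17.8% and 15.7% of all genes. The riser was SOCS1, a feedback inhibitor of cytokine signalling, by 1.20 ± 0.31 on the log2 scale (adjusted p = 0.0246). IRF9, a subunit of the factor that binds the response element, went from 23.7 ± 7.35 to 2.90 ± 0.791 CPM, and IRF1 from 45.3 ± 1.20 to 10.7 ± 1.32 CPM (adjusted p = 0.000466 and 2.73e-05). STAT2 fell by 0.70 ± 0.07 on the log2 scale (adjusted p = 0.000450).

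Ubiquitin-conjugating enzymes, which hand ubiquitin to TRIM ligases, mostly did not pass. Of 14 tested genes 1 rose and 1 fell, with a median of -0.08. That is 14.3%, below the 33.6% of all tested genes. UBE2L6, the conjugating enzyme of ISG15, went from 50.7 ± 0.586 to 23.3 ± 1.77 CPM (log2 fold change -1.12, adjusted p = 9.17e-05). UBE2E3 rose by 0.63 ± 0.08 on the log2 scale (adjusted p = 0.00132). UBE2E2 was at 18.6 ± 0.747 and 21.8 ± 1.64 CPM (adjusted p = 0.0643) and UBE2E1 at 86.7 ± 2.03 and 67.2 ± 14.2 CPM (adjusted p = 0.0814).

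At the level of transcripts, 106 of 178 TRIM transcripts were tested and 2 passed, both lower (3.99% of all tested transcripts passed, 1.39% higher and 2.60% lower). ENST00000379965.8 of TRIM22 was at 3.11, 3.36 and 3.91 CPM in control and 0.199, 0.314 and 0.167 CPM in TTC3 shRNA libraries (adjusted p = 0.00866), and held at least 97.4% of the gene in both groups. ENST00000366698.7 of TRIM17 was at 0.381, 0.725 and 0.295 CPM in control and had no count in TTC3 shRNA libraries, so it passed the filter through control libraries alone and had to differ. Both calls are uncertain, since the number of TRIM transcripts past the test was 0 without any control replicate and 1 without TTC3 shRNA replicate 2. It was 11 when TTC3 shRNA replicate 1 was left out and 15 by DESeq2. The share of all transcripts in each of these fits is not reported here. In TRIM34, ENST00000429814.3 held 99.0% of the gene count in control and 25.0% in TTC3 shRNA libraries, the rest falling to ENST00000514226.5, on few counts in the second group and with neither past the test (adjusted p = 0.112 and 0.432). The TRIM5 transcripts ENST00000396847.7 and ENST00000380034.8 were at 14.9 ± 4.24 and 11.3 ± 5.21 CPM in control and 9.76 ± 2.70 and 12.8 ± 4.26 CPM in TTC3 shRNA cells, and neither passed.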

How the data were processed

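The tools named, per the submitters' processing notes, are StringTie, STAR and Trim Galore, with genome build hg38. Tool versions, settings, annotation release and strand use in counting: not given in the sources used here. Estimated counts per gene and transcript were deposited by the authors as whole numbers, 1 column per library, not scaled for library size, so no rounding was needed. Libraries were grouped and numbered by title.

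The members, lists and tests were chosen with earlier results of these data known. Counts were fitted over all 24325 genes and 53805 transcripts that passed edgeR's filterByExpr. It asks for the CPM equivalent of about 10 counts in each of at least 3 libraries, and 15 counts in total. The fit used edgeR 4.0.16 in R 4.3.3: TMM scaling (factors 0.924 to 1.05), glmQLFit and glmQLFTest, no block. A gene passed at a Benjamini-Hochberg adjusted p below 0.05 over all genes. A positive log2 fold change is higher with TTC3 shRNA. The SE is the log2 fold change divided by the square root of F. Precision is limited by the spread between libraries for abundant genes and by counting error for rare ones.

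Positions and transcript lengths came from GENCODE 29 (GRCh38, the same assembly as hg38), matched by identifier without version. Level per kilobase sums each transcript's CPM over its own length. Log2 ratios of single libraries used CPM plus 0.01. Promoters came from RefSeq (GRCh38.p14).

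Named members were TTC3, both interferon lists, up to 12 rises and 12 falls past the test with a mean of at least 1 CPM, the 5 highest per kilobase, the chromatin and NHL classes and up to 4 genes per pathway list. Other genes were named after their values were seen. Alternatives were DESeq2 size factors, library totals, limma-voom (limma 3.58.1), DESeq2 1.42.0, scaling that leaves out mitochondrial genes and the top 20, no filter, 50 counts in 3 libraries, an adjusted p of 0.01, glmTreat with a fold of 1.5, a block on replicate number, each library left out, and a lowess trend with length (span 0.5) removed. The procedure was tested on simulated data. Values of some marker and pathway genes are not reported here.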

Additional observations from a re-analysis of the deposited data

How the results depend on the processing

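The number of TRIM genes past the test, 21 (9 higher, 12 lower), was 5 (0 and 5) against a fold of 1.5. TRIM17, TRIM29 and TRIM31, admitted only through control libraries, were among those 5. At an adjusted p of 0.01 the number was 9 (2 and 7), with TRIM17 and TRIM31 among the 7. The share of all genes at that threshold is not reported here. All genes gave 33.6% past the test in the main fit and 8.36% against a fold of 1.5. With library totals alone 3 were higher and 20 lower (all genes 2518 and 5356 of 24325). Leaving out 1 library at a time gave 9 to 39 past the test, 2 to 18 higher and 7 to 21 lower. The lowest total came without control replicate 3 (all genes 18.4%) and the highest without TTC3 shRNA replicate 1 (all genes 54.1%). DESeq2 gave 27 and limma-voom 22. The median of the interferon-inducible list minus that of the other members, -0.20, was -0.26 with at least 50 counts in 3 libraries, and that of the antiviral members ranged from -0.27 to -0.11. TRIM25 turned from 0.03 to -0.10 and TRIM56 from 0.0867 to -0.0475 with library totals alone. The 2 TRIM transcripts past the test were 15 by DESeq2, 1 without a filter, 0 with the replicate block and 0 to 11 with a library left out. Shares of all transcripts in those fits are not reported here. TTC3 passed in every fit.

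Same-numbered libraries were not shown to be paired: their deviations correlated at 0.14, 0.12 and 0.03, the third below 0.1. With the replicate number as a block, 18 TRIM genes passed (8 higher, 10 lower), beside 28.5% of all genes. The calls of TRIM23, TRIM32 and TRIM38 ended in that fit. Depth limits TRIM17, TRIM29, TRIM31, TRIM54 and TRIM72, which had few counts. The length trend could not be removed for genes without a matched transcript, which took the median trend.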
